A study of Rattus norvegicus with 9 samples.

Results

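The 10 genes described here belong to the Notch pathway: the ligands Jag1, Jag2 and Dll4, the receptors Notch1, Notch2, Notch3 and Notch4, and the target genes Hes1, Hey1 and Heyl. They were picked by symbol from the 16730 genes listed for all 9 livers, by a rule that uses no measured value but was set with earlier results of these data known, and all 10 were found. Livers of male Sprague-Dawley rats were compared, 3 per group. The normal control group was given saline. The model group was given CCl4, an agent that injures hepatocytes and leads to fibrosis, by the intragastric route at 2 ml/kg of a 50% oil solution for 9 weeks. The TA group received the same CCl4 and then tormentic acid (TA), a plant triterpene, at 3 mg/kg for 6 weeks. The labels call both the model and the TA livers hepatitis stage, name the TA libraries TA1, TA2 and TA3 without a dose, and say that TA followed CCl4, so that the TA group carries the CCl4 exposure too. The ages of the rats, and what the model rats were given while the TA rats received TA, are not given in the sources used here. Every library is from whole liver, and in such bulk samples fewer cells of a type and less RNA per cell cannot be told apart.

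Notch signalling passes between touching cells. A ligand of the Jagged or Delta-like family on one cell binds a Notch receptor on its neighbour, the receptor is then cut by proteases, and its freed intracellular part joins the DNA-binding protein Rbpj to switch on genes such as Hes1, Hey1 and Heyl, which code for transcriptional repressors. In liver, Jag1 and Notch2 are best known for the formation of bile ducts, Dll4, Notch1 and Notch4 are used in endothelium, and Notch3 and Heyl are typical of pericytes and smooth muscle of vessels. Jagged ligands, Notch receptors and their targets have also been studied in stellate cells, the collagen-making cells of the injured liver.

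Between 13156735 and 18090405 reads were counted on genes per liver. The first model liver stood apart: its TMM factor, the edgeR correction for library composition, was 1.72 against 0.819 to 1.17 in the other 8 livers, and its 50 most counted genes held 27.9% of its reads against 40.4% to 45.7% in the others. Albumin (Alb) and the other 7 hepatocyte markers were detected in all 9 livers, and their summed level was 114231 to 142676 CPM in normal livers, 26374 to 96511 in model livers and 90852 to 152855 in TA livers. The lowest of these sums was that of the first model liver. CPM here are counts scaled to a common library size after TMM normalization over the 9 livers, and groups are said to overlap or not on this scale. Log2 fold changes are from edgeR's quasi-likelihood test with their standard error (SE), and a gene is said to have risen or fallen where its p adjusted over all genes tested was under 0.05.

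In Model VS Normal, 9 of the 10 genes passed the filter on low counts and Hey1 did not. The ligand Jag1 and the target Heyl rose, and no tested member fell. These are 2 of 9, where 7.87% of the 12730 genes tested passed the same threshold, 6.86% by rising and 1.01% by falling. The groups did not overlap for 3 of the 9, each higher in the model group, where this held for 38.2% of all genes tested, with 20.4% higher in the model group. The study defined DEGs with DESeq2, by p under 0.05 before adjustment and an absolute log2 fold change over 1. Here and below these thresholds were applied to the edgeR values instead, so that the shares are not those of the study. By these thresholds 4 of the 9 passed (Jag1, Jag2, Notch3 and Heyl), all higher, against 22.1% of all genes, 16.6% on the higher side. The median log2 fold change was 1.10 over the 9 genes and 0.02 over all genes tested. The 1.10 is the value of Notch4, which was 0.48 without the first model liver. DESeq2 and limma voom each called 4 members, where they called 18.2% and 27% of all genes with an adjusted p.

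In TA VS Model, the median was -0.53 over 9 genes and -0.00 over all 12781 tested. The -0.53 is again the value of Notch4, which was 0.10 without the first model liver. No member, and no gene at all, had an adjusted p under 0.05 by edgeR (0% of genes). By the DEG thresholds, 5 members passed, 4 lower (Jag1, Jag2, Notch3, Heyl) and 1 higher (Hes1) in the TA group, against 12.3% of all genes, 10.2% lower and 2.11% higher, and these 5 were also those with an unadjusted p under 0.05, where 1999 genes (15.6%) had such a p. The groups did not overlap for 3 of the 9, Jag1, Jag2 and Heyl, each lower in the TA group, as for 12.4% of all genes. DESeq2 called 2 members, Jag1 (adjusted p = 0.0430) and Jag2 (adjusted p = 0.0322), where it called 3.64% of all genes with an adjusted p, and limma voom called 0, where it called 1.32%. In TA VS Normal, 0 of 9 members had an adjusted p under 0.05 by edgeR, DESeq2 or voom, where edgeR called 0.263% of 12179 genes, DESeq2 2.34% and voom 1.04%. Heyl was the 1 member with an unadjusted p under 0.05, where 9.43% of all genes had one, and also the 1 that met the DEG thresholds, which 5.25% of all genes met, 4.24% on the higher side. The groups did not overlap for 2 of the 9, Heyl (higher) and Jag2 (lower), where this held for 14.8% of all genes. With the replicate number as a block, the members called remained 0 while 203 genes were called in place of 32. TA VS Model shares its model livers with Model VS Normal and TA VS Normal shares its livers with both, so that the comparisons are not independent.

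**Figure D1:**
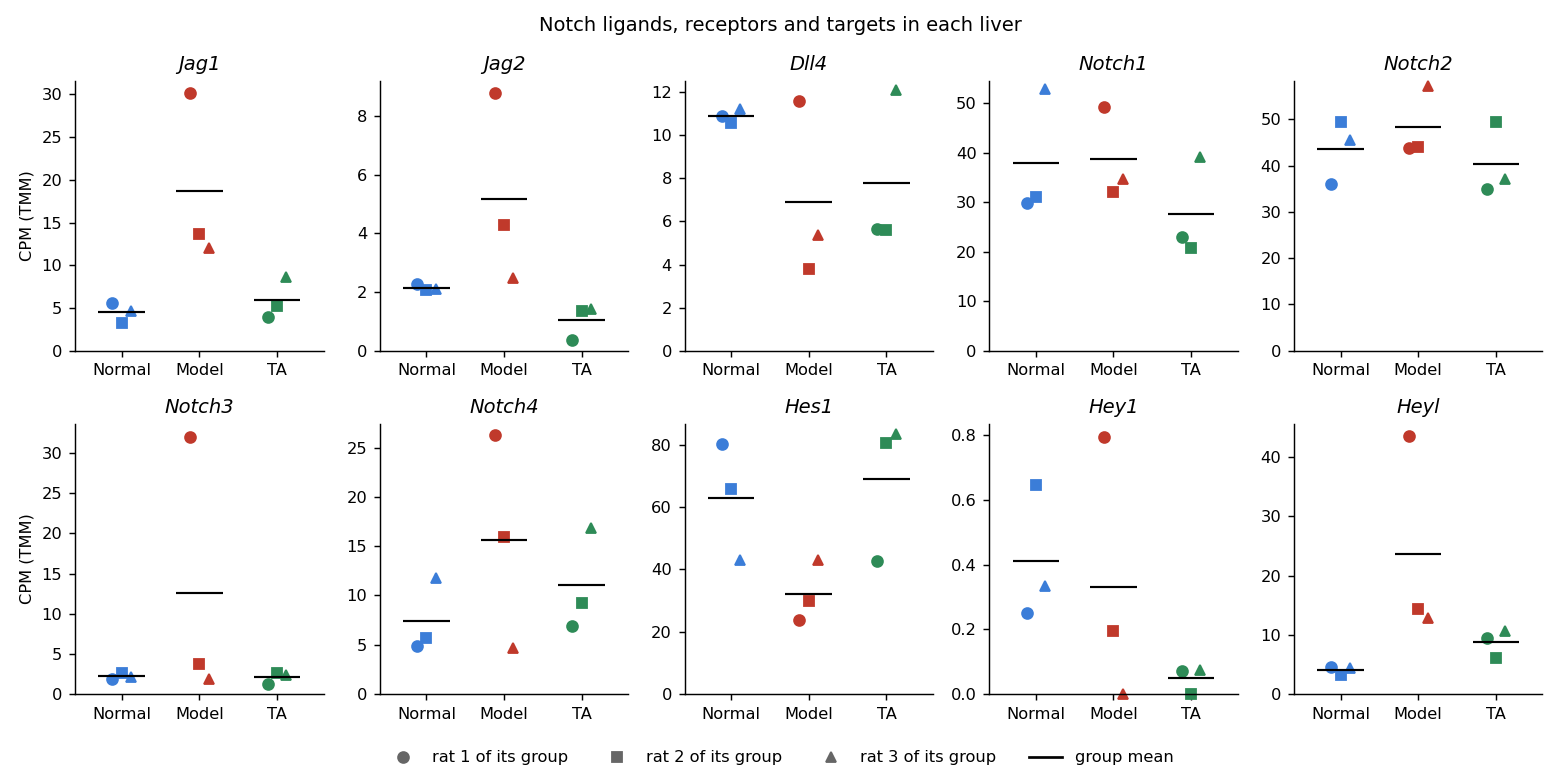
Level of each of the 10 genes in every liver, in CPM after TMM normalization over the 9 livers, on a linear axis from 0 that differs between panels. Each point is 1 liver, with its symbol giving the replicate number, and the short line is the mean of the 3 livers of a group. Jag1 and Heyl lie higher in all 3 model livers than in any normal liver, and the Notch3 mean of the model group rests on the first liver, at 32.1 CPM.

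**Figure D2:**
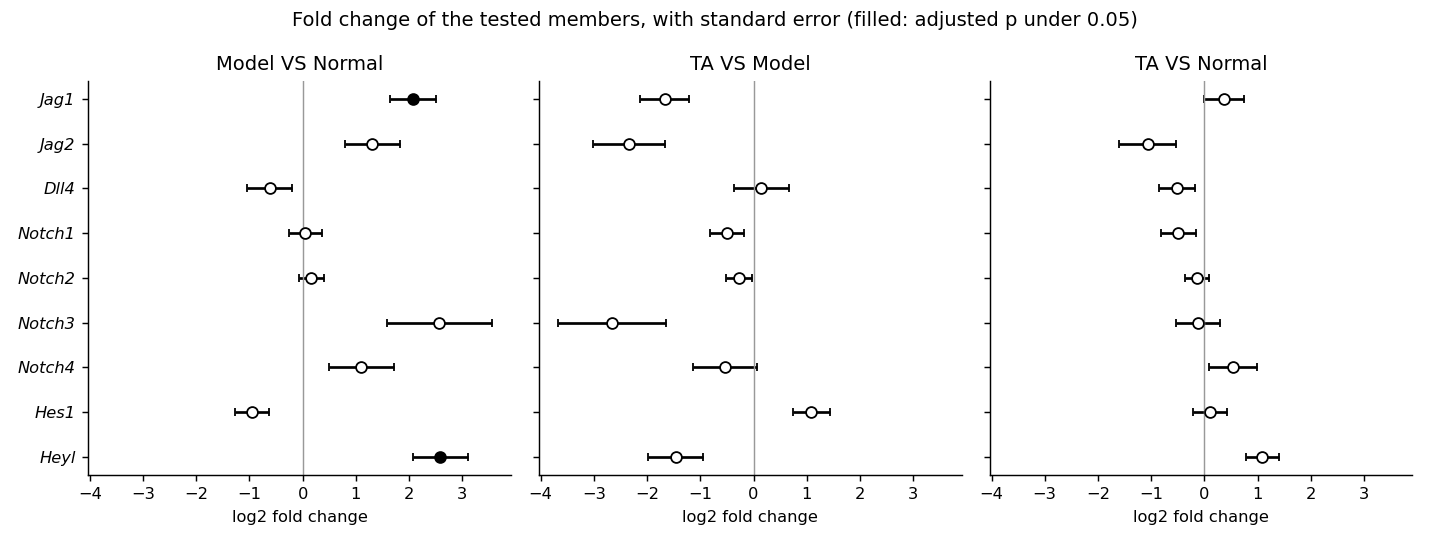
Log2 fold changes of the 9 tested genes in the 3 comparisons from edgeR, with bars of 1 SE and filled points where the adjusted p was under 0.05. Jag1 and Heyl in Model VS Normal are the filled points, at 2.08 and 2.59.

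Jag1, a Jagged ligand, had 5.61, 3.30 and 4.60 CPM in the normal livers, 30.2, 13.7 and 12.0 in the model livers, and 3.94, 5.27 and 8.66 in the TA livers. All 3 model livers lay above the other 6, and the third TA liver lay above the normal ones while the other TA livers lay among them. Jag1 rose in Model VS Normal (log2 fold change 2.08, SE 0.43, adjusted p = 0.0325). Without the first model liver the log2 fold change was 1.52 (adjusted p = 0.0295), and without the first, the second or the third normal liver it was 2.25, 1.88 and 2.07, with an adjusted p of 0.0928, 0.152 and 0.134. These last fits called 51, 0 and 0 of all genes in place of 1002. In TA VS Model the log2 fold change was -1.67 (SE 0.47, unadjusted p = 0.00732, adjusted p = 0.252), and -1.11 without the first model liver, and in TA VS Normal it was 0.38 (SE 0.38, adjusted p = 0.878). The TA and normal groups overlapped for this gene.

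Jag2, the other Jagged ligand, was scarcer, with 27, 32 and 25 reads in the normal livers, 199, 66 and 35 in the model livers and 5, 16 and 19 in the TA livers. Its CPM were 2.26, 2.07 and 2.09, then 8.78, 4.30 and 2.48, and then 0.358, 1.36 and 1.42 in the same order. The 3 groups did not overlap: the TA livers were the lowest and the model livers the highest, although the third model liver was only just above the first normal one. For Model VS Normal the log2 fold change was 1.31 (SE 0.51, unadjusted p = 0.0342, adjusted p = 0.140) and 0.66 without the first model liver. It was -2.34 in TA VS Model (SE 0.68, unadjusted p = 0.00907, adjusted p = 0.254), -1.69 without the first model liver, and -1.07 in TA VS Normal (SE 0.54, adjusted p = 0.621). Jag2 was thus the 1 tested member with TA livers all below the normal ones, where 5.77% of all genes in TA VS Normal had that order.

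Dll4, a Delta-like ligand made mainly by endothelium, had 10.9, 10.5 and 11.2 CPM in the normal livers, 11.6, 3.78 and 5.38 in the model livers, and 5.66, 5.60 and 12.1 in the TA livers. The normal livers were close to each other, while in both other groups 1 liver was at the normal level and the remaining ones were under 6 CPM. Model VS Normal gave a log2 fold change of -0.62 (SE 0.43, adjusted p = 0.365), and -1.26 (adjusted p = 0.0453) without the first model liver. It was 0.14 in TA VS Model (SE 0.51, adjusted p = 0.908) and -0.51 in TA VS Normal (SE 0.34, adjusted p = 0.761). With libraries scaled by their totals alone, which shifts the median of all genes to 0.65 in Model VS Normal and to -0.48 in TA VS Model, the first 2 of these were 0.14 and -0.47.

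The 3 ligands were also compared as shares of their summed FPKM within each liver, a per-length measure that does not depend on how libraries are scaled to each other. Jag1 took 25.9%, 17.6% and 22.0% of the sum in the normal livers, 54.7%, 58.0% and 55.6% in the model livers, and 34.9%, 38.2% and 34.4% in the TA livers. The first model liver, which stood apart in composition, had the lowest of the 3 model values, and all 3 were above 50%. The Dll4 share was 61.3%, 68.8% and 65.6% in the normal livers, 25.7%, 19.6% and 30.4% in the model livers, and 61.2%, 49.7% and 58.7% in the TA livers. Among these 3 ligands the largest share was that of Dll4 in every normal and every TA liver and that of Jag1 in every model liver. The order holds for these 3 alone: the Delta-like ligand Dll1, which is not among the 10 genes, had more FPKM than Dll4 in all 6 normal and TA livers (2.59 to 2.77 in the normal livers, and 1.46, 3.49 and 3.01 in the TA livers). It also had more than Jag1 in the second and the third model liver, at 3.43 and 4.15 FPKM against 2.86 and 2.27. Jag2 took 12.8%, 13.6% and 12.3%, then 19.6%, 22.4% and 14.1%, and then 3.90%, 12.1% and 6.93%, in the order normal, model and TA.

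Mean Jag1 shares were 21.8% ± 4.13 (SD, n = 3), 56.1% ± 1.69 and 35.8% ± 2.07 in the normal, model and TA groups. The Jag1 share differed by 34.3 percentage points in Model VS Normal, -20.3 in TA VS Model and 14.0 in TA VS Normal, and the Dll4 share by -40.0, 31.3 and -8.72. For Jag2 the differences were 5.78, -11.0 and -5.26 points. In each of these 9 pairs the groups did not overlap, and each gave the smallest p that 3 livers against 3 allow (exact permutation test, two-sided, p = 0.1; 0.21 adjusted over the 21 pairs of ligands and receptors), so that none could pass 0.05. The 3 shares add up to 100% in a liver and are not independent of each other. With counts not divided by gene length, 8 of the 9 pairs did not overlap, and with Dll1 added to the sum 6 did not.

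**Figure D3:**
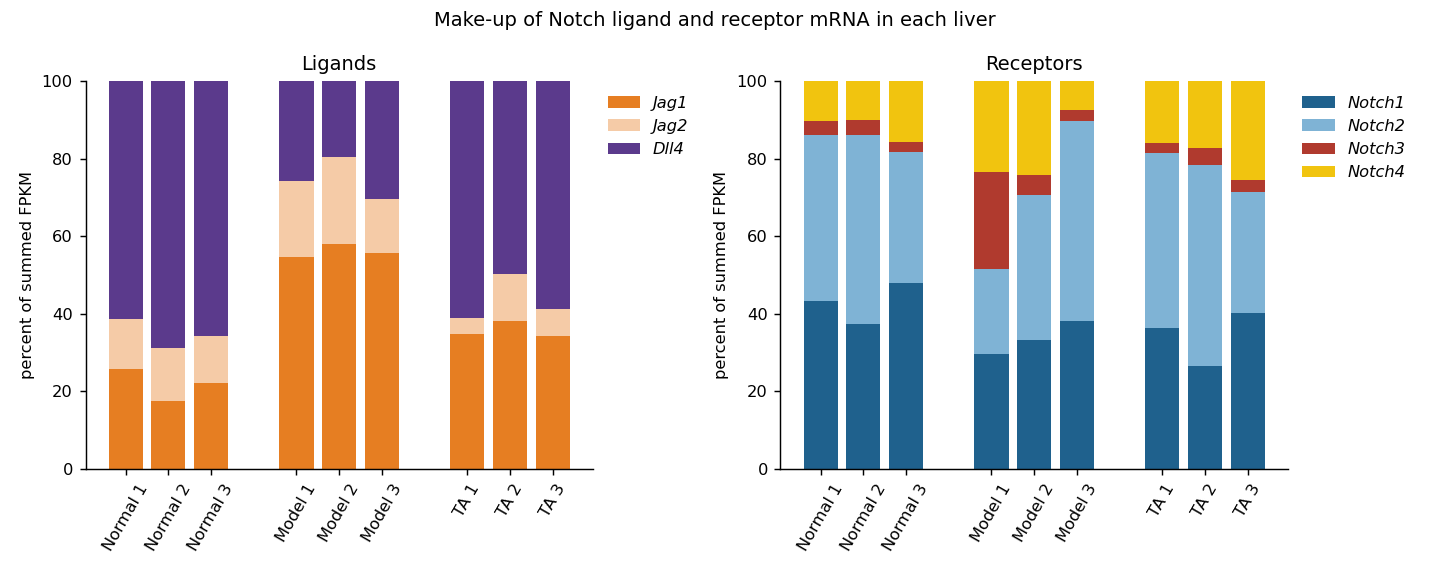
Share of each ligand in the summed FPKM of Jag1, Jag2 and Dll4 (left), and of each receptor in that of Notch1 to Notch4 (right), in percent, with 1 stacked bar per liver from 0 to 100%. The Jag1 part is above 50% in the 3 model livers alone, and the Notch3 part is 25.2% in the first model liver and at most 5.09% in the others.

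Among the receptors, Notch1 and Notch2 differed little. Notch1 had 29.8, 31.1 and 52.8 CPM in the normal livers, 49.3, 32.1 and 34.6 in the model livers, and 23.1, 20.7 and 39.2 in the TA livers. The log2 fold changes were 0.05 (SE 0.31, adjusted p = 0.932) in Model VS Normal, -0.50 (SE 0.32, adjusted p = 0.446) in TA VS Model and -0.49 (SE 0.32, adjusted p = 0.763) in TA VS Normal, with groups that overlapped each time. Notch2, the receptor tied to bile duct formation, had 36.0, 49.4 and 45.6 CPM, then 43.9, 43.9 and 57.2, and then 34.9, 49.4 and 37.0. Its log2 fold changes were 0.17 (SE 0.23), -0.27 (SE 0.24) and -0.14 (SE 0.22), and its SE was the smallest of the 9 genes in each comparison.

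Notch3, a receptor of mural cells, had 1.84, 2.59 and 2.09 CPM in the normal livers, 32.1, 3.78 and 1.84 in the model livers, and 1.29, 2.55 and 2.32 in the TA livers. The high model value came from 1 liver, with 727 reads against 58 and 26 in the other model livers, and the third model liver was at the normal level. The log2 fold change of 2.56 in Model VS Normal (SE 0.99, unadjusted p = 0.0317, adjusted p = 0.135) was 0.36 (adjusted p = 0.705) without the first model liver, and that of -2.65 in TA VS Model (SE 1.02, adjusted p = 0.288) was -0.46. In TA VS Normal it was -0.12 (SE 0.42, adjusted p = 0.978). Notch4, an endothelial receptor, had 4.86, 5.63 and 11.8 CPM, then 26.3, 15.9 and 4.67, and then 6.87, 9.26 and 16.9, so that the third model liver was the lowest of all 9. Its log2 fold changes were 1.10 (SE 0.62, adjusted p = 0.273) in Model VS Normal, 0.48 without the first model liver, -0.53 (SE 0.60, adjusted p = 0.670) in TA VS Model, 0.10 without that liver, and 0.54 (SE 0.44, adjusted p = 0.836) in TA VS Normal.

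Of the summed receptor FPKM, Notch1 took a mean of 42.8%, 33.7% and 34.3% in the normal, model and TA groups, and Notch2 one of 41.9%, 37.0% and 42.8%. The Notch3 share was 25.2% in the first model liver and between 2.46% and 5.09% in the other 8. In contrast to the ligands, 1 of 12 pairs of receptor shares did not overlap: Notch4 took 12.0% ± 3.23 (SD, n = 3) in the normal control group and 19.6% ± 5.14 in the TA group (exact permutation test, two-sided, p = 0.1). These groups were only just apart, with 15.7% in the third normal liver and 15.9% in the first TA liver. With counts not divided by length, or without Notch4 in the sum, 0 pairs were without overlap. Leaving out a liver cannot bring groups to overlap, and it gave 5 such pairs without the third model liver, 3 without the second normal liver and 2 without the third TA liver.

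Heyl, a target typical of vascular mural cells, had the largest called change of the members. It had 54, 49 and 52 reads in the normal livers, 988, 221 and 181 in the model livers, and 133, 71 and 142 in the TA livers, which are 4.52, 3.17 and 4.35 CPM, then 43.6, 14.4 and 12.8, and then 9.52, 6.03 and 10.6. The 3 groups did not overlap, with the TA livers between the normal and the model livers. Heyl rose in Model VS Normal (log2 fold change 2.59, SE 0.52, adjusted p = 0.0303). Without the first model liver the value was 1.76 (adjusted p = 0.0141). Without the first, the second or the third normal liver it was 2.66, 2.42 and 2.62, with an adjusted p of 0.0969, 0.146 and 0.130 in the fits that called 51, 0 and 0 genes in all. In TA VS Model the log2 fold change was -1.46 (SE 0.51, unadjusted p = 0.0223, adjusted p = 0.275), and -0.64 without the first model liver. In TA VS Normal it was 1.09 (SE 0.32, unadjusted p = 0.00801, adjusted p = 0.253), where 9.04% of all genes had every TA liver above every normal one.

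Hes1, a target found in many cell types, went the other way. It had 80.4, 65.8 and 42.9 CPM in the normal livers, 23.8, 29.9 and 43.0 in the model livers, and 42.8, 80.6 and 83.7 in the TA livers. The third model liver, the third normal liver and the first TA liver were at nearly the same level, and the groups overlapped in all 3 comparisons. The log2 fold change was -0.95 (SE 0.32, unadjusted p = 0.0173, adjusted p = 0.101) in Model VS Normal, where DESeq2 gave an adjusted p of 0.0486 and voom one of 0.00962. It was 1.09 (SE 0.34, unadjusted p = 0.0137, adjusted p = 0.261) in TA VS Model and 0.10 (SE 0.32, adjusted p = 0.977) in TA VS Normal. Hey1, an endothelial target, was too scarce to be tested: 3, 10 and 4 reads in the normal livers, 18, 3 and 0 in the model livers, and 1, 0 and 1 in the TA livers. A count of 0 allows up to 3 counts, and these values are given as counts only.

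The promoters of the targets are shown because the letters that Rbpj is known to bind, TGGGAA, can be looked for in them. They are the 250 bases before the start of the gene in RefSeq (assembly GRCr8), printed along the gene's strand with TGGGAA, or TTCCCA where it reads on the other strand, in capitals. Hes1 is at chr11:84213046-84213295 on the minus strand and Heyl at chr5:140793021-140793270 on the plus strand. Notch4, at chr20:4189073-4189322 on the minus strand, is added as the only other member, of the 8 with a window, in which the letters were found.
Hes1: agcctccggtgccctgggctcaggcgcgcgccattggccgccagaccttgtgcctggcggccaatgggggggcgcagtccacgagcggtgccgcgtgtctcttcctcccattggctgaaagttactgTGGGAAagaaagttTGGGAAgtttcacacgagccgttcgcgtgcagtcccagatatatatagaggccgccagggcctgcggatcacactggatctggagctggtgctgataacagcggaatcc
Heyl: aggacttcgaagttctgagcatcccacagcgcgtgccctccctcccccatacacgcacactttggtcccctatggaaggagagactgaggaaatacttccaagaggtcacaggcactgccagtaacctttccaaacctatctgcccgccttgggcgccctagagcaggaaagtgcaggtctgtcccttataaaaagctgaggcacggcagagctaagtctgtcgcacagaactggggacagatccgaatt
Notch4: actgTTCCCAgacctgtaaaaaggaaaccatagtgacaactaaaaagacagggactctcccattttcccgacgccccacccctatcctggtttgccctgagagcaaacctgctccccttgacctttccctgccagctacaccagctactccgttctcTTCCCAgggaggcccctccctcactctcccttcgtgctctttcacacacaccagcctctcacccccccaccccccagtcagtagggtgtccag
Both strands were searched. Hes1 holds the letters at -123 to -118 and at -109 to -104 from its start, and the earlier match is also one to the longer form GTGGGAA. Of 33469 promoter windows of this length, 22.1% hold TGGGAA at least once, 2.71% at least 2 times, and 5.27% hold GTGGGAA. The Heyl window, of the target that rose, holds none, and neither do those of Jag1, Jag2, Notch1, Notch2 and Notch3. CACNAG, the N box that Hes proteins bind, is in 37.2% of the windows, and at least 2 times in 8.02%. It occurs 4 times each in the windows of Hes1 and Notch1, 2 times in that of Notch4 and 1 time in that of Notch3. It occurs 0 times in those of Heyl, Jag1, Jag2 and Notch2. In Notch1 the matches at -28 to -23 and at -26 to -21, on opposite strands, overlap. These are matches of letters only. Windows for Dll4 and Hey1 were not analysed here.

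On a per-length scale, Hes1 was the most abundant member in every group, at a mean of 36.6 ± 11.3 FPKM (SD, n = 3) in normal, 27.9 ± 3.58 in model and 44.1 ± 12.9 in TA livers, and its livers did not overlap with those of the next gene. In the normal control group it was followed by Notch1 at 3.32 FPKM, Notch2 at 3.16 and Dll4 at 2.00. The remaining 6 genes had means under 1 FPKM, with Notch3 last at 0.249. Notch1 and Notch2 overlapped, as did Notch4 (0.955) with Heyl (0.720) and Heyl with Jag1 (0.675). In the model group Heyl came second at 7.53 ± 7.42 FPKM, but all neighbours from the second place down overlapped. In the TA group Notch2 (3.25) and Notch1 (2.70) were again next after Hes1, followed by Heyl at 1.75, and these and the genes down to Jag1 (0.988) overlapped with their neighbours. FPKM are scaled by the library total, so that the levels of one gene should be compared between groups by CPM.

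The rest of the pathway was followed with a list of 58 other genes, of which 54 are in both tables and 47 were tested in Model VS Normal. Of these, 4 rose and 1 fell, where 7.87% of all genes passed, and the median log2 fold change was 0.09. Those that rose were Dlk1, a ligand of the same family that lacks the usual receptor-binding domain, Rbpj itself, Numbl, a relative of the Notch antagonist Numb, and Dtx3, of the Deltex family of ubiquitin ligases. Hes6, a bHLH factor that acts against Hes1, fell. No receptor glycosyltransferase (5 tested), receptor protease (3), gamma-secretase subunit (5) or corepressor (12) passed the adjusted threshold. In TA VS Model 0 of 47 and in TA VS Normal 0 of 44 passed by edgeR, with 7 and 6 at an unadjusted p under 0.05, where 15.6% and 9.43% of all genes had one, and medians of -0.05 and 0.03.

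Dlk1 was almost undetected outside the model group, with 1, 1 and 0 reads in the normal livers and 2, 2 and 1 in the TA livers against 87, 205 and 55 in the model livers. All 3 model livers were far above the other 6. The ratio of the pooled, library-size corrected counts was 131 for model to normal (347 against 2 reads, 95% interval 36.0 to 1086) and 52.1 for model to TA (347 against 5 reads, 22.1 to 161), where the intervals cover counting error only. It had an adjusted p of 0.0116 in Model VS Normal and of 0.230 in TA VS Model by edgeR, where 0.230 was the smallest of any gene. Numbl counts were 5, 13 and 2 in the normal livers, 507, 70 and 57 in the model livers, and 49, 23 and 40 in the TA livers. Its log2 fold change was 4.41 (SE 0.89, adjusted p = 0.0309) in Model VS Normal, -1.90 (adjusted p = 0.282) in TA VS Model and 2.47 (SE 0.59, unadjusted p = 0.00268, adjusted p = 0.156) in TA VS Normal, with TA livers between the other groups as for Heyl.

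Rbpj, the DNA-binding partner of all Notch receptors, had 85, 143 and 83 reads in the normal livers, 736, 200 and 276 in the model livers, and 209, 180 and 73 in the TA livers. It rose by a log2 fold change of 1.50 (SE 0.37, adjusted p = 0.0468) in Model VS Normal, and was at -0.89 (adjusted p = 0.388) in TA VS Model. Dtx3 rose by 1.55 (SE 0.34, adjusted p = 0.0376) and was at -0.89 (adjusted p = 0.264) in TA VS Model, with no overlap between the groups in either. Hes6 had 85.0, 92.0 and 173 CPM in the normal livers, 25.5, 33.6 and 41.2 in the model livers, and 40.2, 67.9 and 78.9 in the TA livers. Every normal liver was above the other 6, and the model and TA groups overlapped. It fell in Model VS Normal (log2 fold change -1.79, SE 0.36, adjusted p = 0.0296). The next 3 genes on the lower side did not pass: Psenen, a subunit of gamma-secretase, at -0.84 (adjusted p = 0.102), Psen2, its catalytic subunit, at -0.62 (adjusted p = 0.134), and Furin, the protease that matures Notch receptors, at -0.77 (adjusted p = 0.155).

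**Figure D4:**
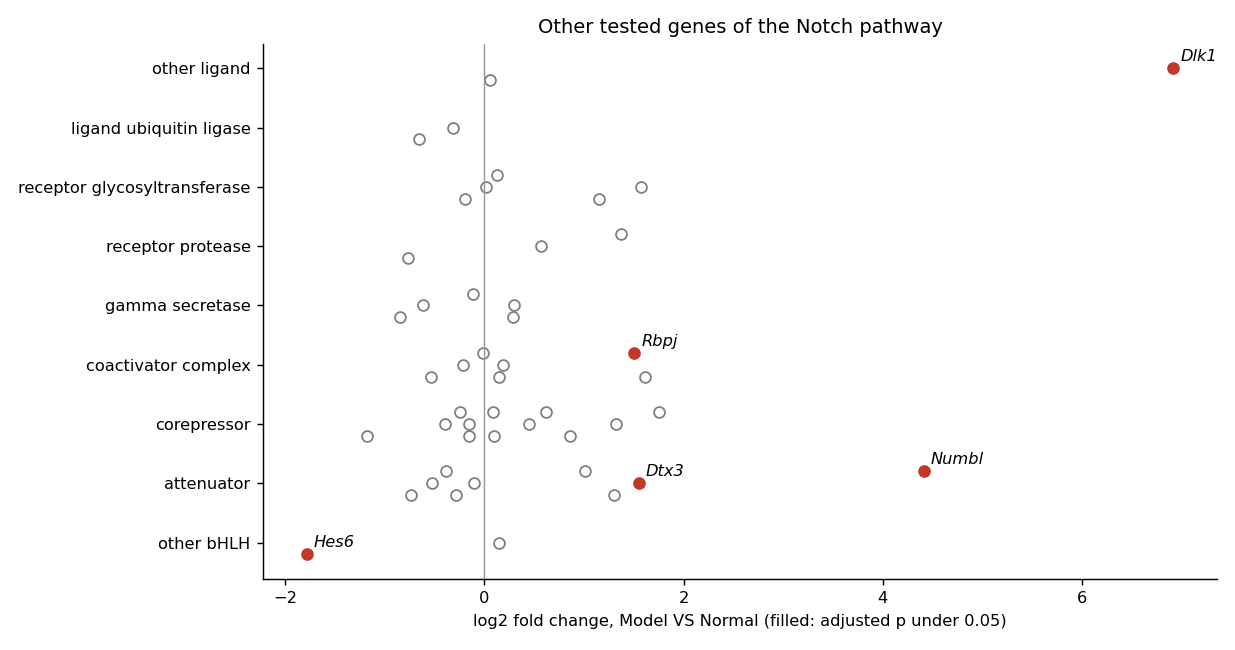
Log2 fold changes in Model VS Normal of the 47 tested genes of the pathway list, 1 point per gene in a row for its role (small vertical shifts only separate points), filled where the adjusted p was under 0.05. Dlk1, Numbl, Dtx3 and Rbpj are filled on the higher side and Hes6 on the lower side.

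Markers of bile duct, smooth muscle and pericytes, and part of those of stellate cells and fibroblasts, differed between the groups, while the endothelial sums overlapped. The summed level of 8 cholangiocyte markers, the cells of bile ducts, was 86.9 to 106 CPM in the normal livers, 175 to 227 in the model livers and 104 to 115 in the TA livers. Of the 7 tested in Model VS Normal, 5 rose: Krt7, Krt19, Epcam, Sox9 and Cftr. The 10 markers of smooth muscle and pericytes summed to 152 to 161, 277 to 933 and 205 to 275 CPM in the same order, without overlap between the groups, and Tagln, Des and Pdgfrb rose in Model VS Normal. In the first model liver, where Notch3 and Heyl were highest, this sum was 933 CPM against 366 and 277 in the other model livers, and the sum of 10 stellate cell and fibroblast markers was 5233 against 456 and 625. The stellate and fibroblast sum was 382 to 519 in the normal livers and 465 to 545 in the TA livers. Its genes moved in both directions in Model VS Normal, where Pdgfra, Dcn, Thy1 and Col1a1 rose and Ecm1 fell, and Dcn and Col1a1 also rose in TA VS Normal. Col1a1, a collagen chain, was at 7.27 to 18.3 CPM in the normal livers, 229 to 4365 in the model livers and 83.8 to 177 in the TA livers. Ecm1 was at 247 to 305, 42.3 to 112 and 106 to 197. The part of these cell types in the changes of Jag1, Heyl, Notch3 and the ligand shares was not tested.

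For the endothelium, 10 of 12 markers in the tables summed to 265 to 315 CPM in the normal livers, 261 to 738 in the model livers and 299 to 375 in the TA livers. The 7 sinusoidal endothelial markers found of 8 summed to 243 to 285, 154 to 290 and 284 to 323. The lowest sum was that of the second model liver, but single markers of the list were lowest in other livers. In Model VS Normal 0 of 10 endothelial and 0 of 7 sinusoidal markers passed the adjusted threshold by edgeR. At an unadjusted p under 0.05 were 6 and 0, where 3674 of the 12730 genes tested had such a p. Of these 6 endothelial markers, 5 were higher and 1 was lower in the model group, so that the sum does not show the single markers. Macrophage markers (8) were at 312 to 433, 211 to 652 and 290 to 704. Of the 7 macrophage markers tested in Model VS Normal, 3 were higher and 2 lower at an unadjusted p under 0.05 by edgeR, against the same 3674 of all genes. Lymphocyte markers (10) were at 27.7 to 42.4, 53.5 to 113 and 31.6 to 57.3, and mesothelial markers (5) at 0.836 to 2.51, 25.5 to 82.6 and 4.67 to 13.5. Mesothelial sums were thus higher in each model liver than in any other liver, Msln and Wt1 rose in Model VS Normal, and 2 of the markers were at 0 in every normal liver. Of tissues next to the liver, the 3 of 6 pancreatic acinar markers found summed to 1.49 to 3.77, 0.782 to 1.32 and 0.859 to 3.06 CPM, the 2 of 6 skeletal muscle markers to at most 0.779 in any liver, and the 3 of 5 adipocyte markers, mostly Cidec, to 86.4 to 100.4, 15.3 to 49.8 and 66.4 to 101. The part of these cells and tissues in the results was not tested.

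**Figure D5:**
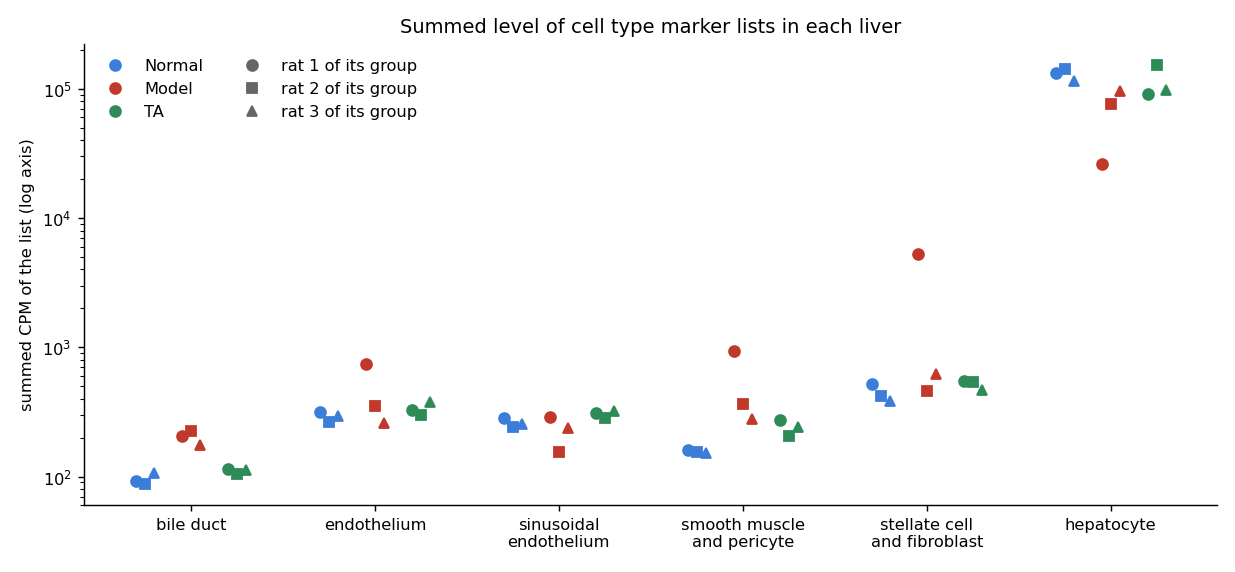
Summed CPM of 6 of the lists of cell type markers in every liver, on a log axis, with 1 point per liver, colour for the group and symbol for the replicate. The model livers are highest for the bile duct (cholangiocyte) and the smooth muscle and pericyte lists, at 175 to 227 and 277 to 933 CPM, and the first model liver is lowest for hepatocytes.

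The genes most like a member were sought among the 12076 genes whose log2 CPM averaged 0 or more, by the root mean square difference between log2 CPM centred on their means over the 9 livers. This was done for the 3 members with the largest range of log2 CPM: Notch3 (4.50), Jag2 (4.17) and Heyl (3.72). Nearest to Jag2 were Nrarp (0.501), Nxn (0.511) and Cenpk (0.534). Nrarp, itself a Notch target that dampens the pathway, is in the pathway list and had 15.4, 4.37 and 2.19 CPM in the model livers, with log2 fold changes of 1.31 (adjusted p = 0.260) in Model VS Normal and -1.76 (adjusted p = 0.366) in TA VS Model. Nearest to Heyl were Evi2a (0.168), Tspan15 (0.173) and Fam105a (0.174), and among the nearest to Notch3 were Gnpda1 (0.350) and Map6 (0.453). The distances from Heyl were the smallest of the 3 members and those from Jag2 the largest, with Notch3 between. Why they differ was not tested. The high Notch3 value is that of 1 liver. The first model liver, which stood apart in composition, is 1 of the 9 points in every distance.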

How the data were processed

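Liver RNA was prepared as libraries with the NEBNext Ultra kit and sequenced by the authors. They trimmed reads with Trimmomatic and Cutadapt, mapped with STAR and counted with HTSeq-count. The paper names hg19 as mapping reference, the labels mm9, and the symbols are those of rodents, so that the build is unsettled and no position was taken from it. Strand handling is not given in the sources used here, so that antisense reads cannot be told apart.

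The authors deposited raw counts per gene in a pair of tables (16938 and 16948 genes), whose model counts are the same in all 16730 shared genes. FPKM values deposited beside them were used for shares and order. They equal counts divided by library total and a fixed gene length. The 12 columns of DESeq2-normalized values and 6 of the authors' fold changes and p-values were not used.

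Each pair of groups was tested with edgeR 4.0.16 in R 4.3.3 (quasi-likelihood, TMM, filterByExpr with a minimum count of 10, Benjamini-Hochberg over all genes), after a check on simulated data. Of simulated log2 changes of 1, the check called 3.06% in Model VS Normal, 0% in TA VS Model and 7% in TA VS Normal. Of those of 2 it called 31.25%, 35.4% and 71.1%, so that real changes of these sizes can go uncalled. Log2 CPM used a prior count of 2. SE is the log2 fold change over the square root of F. Shares were tested by exact permutation with scipy 1.17.1. The alternatives were DESeq2 1.42.0, limma 3.58.1 voom with sample quality weights, the newer quasi-likelihood form, other normalizations and filters, a robust fit, all 9 libraries in 1 fit, a replicate block and leaving out each library. For shares they were counts without length and another set of genes in the sum.

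The labels number the replicates 1 to 3, without saying what a number marks or that each sample is 1 animal, so p-values measure the spread between these samples. Deviations of same-numbered livers correlated at 0.210, -0.0567 and -0.0525 in Model VS Normal and at 0.219, -0.0354 and 0.00667 in TA VS Model. In TA VS Normal the correlations were 0.256, 0.424 and 0.498. What same-numbered livers share is not known, and the labels name no pairs. All tests given for the comparisons took the groups as independent, and the replicate block was fitted only as an alternative. The block changed no call of a member.

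The members and lists were chosen with earlier results of these data known. Genes named are the members, up to 4 pathway genes on each side with the smallest p in Model VS Normal, the 3 genes most like each of the 3 members of largest range (1 of them is not reported here), and the marker genes of highest CPM where a list is described. Krt7, Krt19, Epcam, Sox9, Cftr, Tagln, Des, Pdgfrb, Pdgfra, Dcn, Thy1, Col1a1, Ecm1, Msln, Wt1, Cidec and Dll1 were named after their values were seen. Promoters are from RefSeq.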

Additional observations from a re-analysis of the deposited data

How the results depend on the processing

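Of 459 log2 fold changes of members under an alternative, 425 kept their direction and side of the threshold. Members called in Model VS Normal numbered 2, against 4 by DESeq2, 4 by voom and 0 to 6 with 1 library left out (0 without any 1 normal liver, 6 without the third model liver, 3 without the first). For TA VS Model DESeq2 called 2 in place of 0, and for TA VS Normal every alternative called 0. With the replicate block the members called were 2, 0 and 0. By library totals, which moved the median of all genes to 0.65, -0.48 and 0.18, Dll4 turned to 0.14 (Model VS Normal) and -0.47 (TA VS Model), and Notch2 to 0.037 and Notch3 to 0.048 in TA VS Normal. By voom Hes1 turned to -0.26 in TA VS Normal. Leaving out 1 library turned Notch1 in Model VS Normal (-0.19 to 0.34), Notch4 (-0.97 to 0.10) and Dll4 (-0.31 to 0.77) in TA VS Model, and Notch3 (-0.31 to 0.13) and Hes1 (-0.11 to 0.35) in TA VS Normal. Receptor shares without overlap numbered 1 in 12, against 0 without length or Notch4 and 1 to 5 with 1 liver left out, which can only add to them. The causes were not tested.

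Over all genes, calls in Model VS Normal numbered 1002, against 2714 by DESeq2, 3433 by voom, 1980 by library totals, 1757 with all 9 libraries in 1 fit and 0 to 2537 with 1 left out. In TA VS Model they were 0, against 520 by DESeq2, 169 by voom and 0 to 1 with 1 left out. In TA VS Normal they were 32, against 332, 127, 56 by library totals, 76 without a filter, 14 with all 9 libraries, 203 with the replicate block and 1 to 61 with 1 left out. Depth limits Hey1, Jag2, Notch3 and Dlk1, which had under 40 reads in most livers.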
